A study of Drosophila melanogaster with 7 samples.

Results

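MtnA, Roc2 and CG32444 cells are the tumor cells in which transcripts of at least 3 of 7 genes were captured: MtnA, Roc2, CG32444, lncRNA:CR44526, NaPi-III, CG12310 and Listericin. The rule was applied to cells with 100 to 2000 detected genes and at most 15% of their transcripts from the mitochondrial genome, and it found 393 members among 7899 kept cells. Single-cell RNA-seq counted unique molecular identifiers (UMIs), so that amplified copies of a captured transcript count once, in 7 droplet libraries of Drosophila midgut tumors. Libraries Tind1 to Tind6 came from 1 dissected tumor each, and Tgrp came from a group of 6 tumors, with no record of which cell came from which tumor. All libraries shared 1 genotype and treatment, so every comparison is between cells of the same library. One parent brought HS-flp and HS-mflp5 with esg-gal4, UAS-flybow and an FRT82B chromosome carrying Tub-Gal80. The other brought HS-flp, UAS-RasV12 and an FRT82B chromosome with Apc2N175K and ApcQ8, and both had yw on the first chromosome. A heat shock of 2 h at 37°C, given 2 to 3 days after the adults emerged, induced recombination, and tumors were taken from GFP-positive flies at least 21 days later. The oncogenic Ras transgene is driven by esg-gal4, a driver active in midgut progenitor cells, and the libraries hold every cell of a dissected tumor, not a sorted clone.

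MtnA encodes a metallothionein, a small cysteine-rich protein that binds copper, zinc and cadmium, and metallothionein genes are switched on by metal load through the factor MTF-1. Roc2 is the RING subunit of a cullin ubiquitin ligase, NaPi-III is a phosphate transporter, Listericin is an antibacterial peptide gene, and lncRNA:CR44526 is a long non-coding RNA. When oxygen is short, fly cells stabilise the factor Sima, the counterpart of mammalian HIF-alpha, which raises glycolytic enzymes, lactate dehydrogenase (Ldh), the FGF ligand branchless (bnl) and the TOR inhibitors scylla (scyl) and charybde (chrb). Ferritin, built of heavy chains (Fer1HCH) and light chains (Fer2LCH), stores iron inside the secretory pathway of insect cells.

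The 7 defining genes are spread over 3 chromosome arms of the release 6 genome. MtnA lies on 3R from 9783407 to 9784370, and CG32444, lncRNA:CR44526, NaPi-III and CG12310 lie on 3L from 21636947 to 21639060, 8692703 to 8693191, 11123348 to 11134663 and 15050263 to 15050806. Roc2 and Listericin lie on 2R from 11652756 to 11679354 and from 11241745 to 11242194. Reads at some of them could belong to a neighbour. CG12310 lies wholly inside Sytbeta on the same strand, nol overlaps NaPi-III on the same strand, and Tret1-1 and Tret1-2 overlap Roc2 on the opposite strand.

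The libraries differed in depth and in their number of members. Deposited cells numbered 493 to 3405 per library, 9914 in all, and kept cells had a median of 317 to 2384 UMIs. Tind4 and Tind5 shared barcodes, so Tind5 cells with a Tind4 barcode were left out. Tind1 held 294 of the 393 members, which is 74.8%, and Tgrp held 38. The study gives Tind3 as the oldest tumor, Tind1, Tind2 and Tind4 as somewhat younger and Tind5, Tind6 and those of Tgrp as the youngest, so the age of a tumor and the tumor itself cannot be told apart. Each individual tumor was taken as 1 replicate, and Tind3 and Tind5, which had no member, enter no comparison. Members had more UMIs than other kept cells, with a median of 2606 against 1611 in Tind1, 3904 against 1070.0 in Tind2, 4689 against 2243 in Tind4, 2537 against 484 in Tind6 and 3480 against 1255 in Tgrp. Members were therefore paired 1 to 1 with other kept cells of the same library at the nearest UMI total, which matched 392 of them.

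Member cells were common in Tind1, less common in Tind4 and rare or unseen elsewhere. In Tind1 294 of 2065 kept cells were members, or 14.2% with an exact 95% binomial interval of 12.8% to 15.8%, and in Tind4 50 of 770 were, or 6.49% (4.86% to 8.47%). Tind6 had 5 members of 309 (1.62%, 0.527% to 3.74%), Tgrp 38 of 2922 (1.30%, 0.922% to 1.78%) and Tind2 6 of 889 (0.675%, 0.248% to 1.46%). The intervals cover counting error only. No member was found among 392 cells of Tind3, which allows a share of up to 0.765% when 3 cells are taken as the limit of a count of 0, or among 552 cells of Tind5, which allows up to 0.543%. The exact intervals there end at 0.937% and 0.666%. Over the 6 individual tumors the share was 3.84% ± 5.65 (SD, n = 6), and the SD exceeded the mean.

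Deeper cells met the rule more often. Within Tind1 the share of members rose from 4.81% of cells with 300 to 1000 UMIs to 12.4%, 15.2% and 28.0% in the bins up to 2000, 4000 and 8000 UMIs. When every cell was thinned to 1000 UMIs and shallower cells were left out, Tind1 kept 138 members of 1587 cells (8.70%, 7.36% to 10.2%). Tind4 then had 10 of 607 (1.65%, 0.793% to 3.01%) and Tgrp 8 of 1878 (0.426%, 0.184% to 0.838%). The intervals of Tind1 and Tind4 did not overlap at either depth. Only 30 cells of Tind3 and 47 of Tind6 reached that depth, with 0 and 1 members and intervals up to 11.6% and 11.3%, so neither share could be told from that of Tind4.

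**Figure D1:**
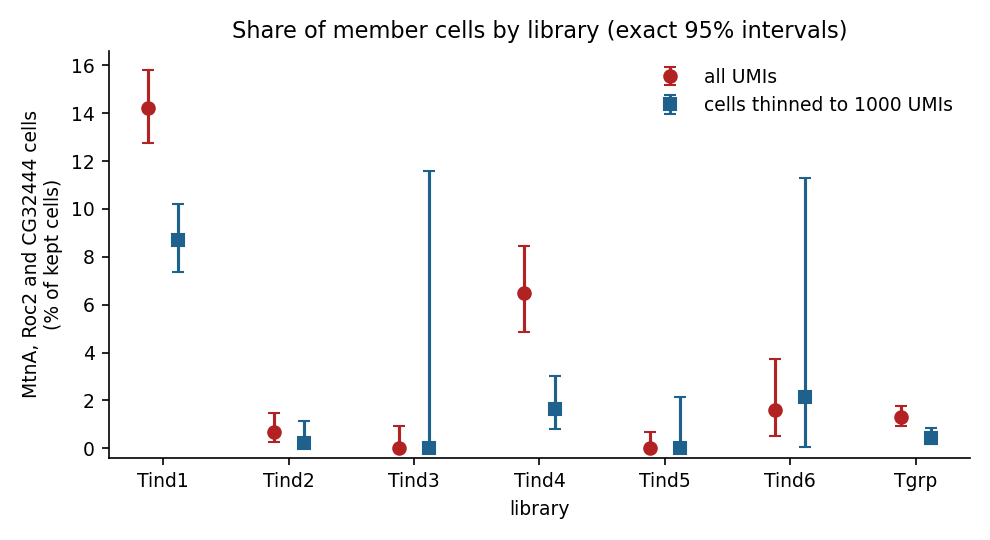
Percent of kept cells that met the rule of at least 3 of 7 genes, by library, with all UMIs (circles) and after thinning each cell to 1000 UMIs (squares). Bars are exact 95% binomial intervals; Tind1 lies at 14.2% and 8.70%, and Tind3 and Tind5 lie at 0.

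MtnA and Roc2 carried most of the membership, and CG12310 the least. Among all members 87.3% had an MtnA UMI, 76.6% Roc2, 57.5% lncRNA:CR44526, 53.9% Listericin, 40.5% NaPi-III, 32.1% CG32444 and 14.8% CG12310. These 7 genes chose the cells, so their levels are given as a description and were not tested. Without MtnA in the rule 189 members would not have qualified, without Roc2 153 and without CG12310 13. The most frequent combination was MtnA, Roc2 and Listericin in 46 members, followed by MtnA, Roc2 and lncRNA:CR44526 in 36 and MtnA, Roc2 and NaPi-III in 22. No cell had all 7 genes, 17 had 6 and 228 had exactly 3.

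The set of genes that brought cells in differed between libraries. MtnA, in CPM (UMIs of a gene per 1000000 UMIs of the summed cells), stood at 3831 in members against 478 in matched others of Tind1, 1186 against 1098 in Tind2, 1189 against 177 in Tind4, 1780.1 against 157 in Tind6 and 801 against 181 in Tgrp. Tind1 members thus had the highest MtnA level, and in Tind2 the levels of both classes lay close together. The Tind2 values rest on 24 UMIs in 5 of 6 members and 22 UMIs in 2 of 6 matched cells. Over all 883 other kept cells of Tind2 MtnA stood at 365 CPM. Roc2 stood at 699 CPM against 84.5 in Tind1, 346 against 0 in Tind2, 198 against 8.62 in Tind4 and 265 against 83.9 in Tgrp, and no Roc2 UMI was found in the 5 members of Tind6. NaPi-III was detected in 30.7% of Tind1 members and in 66.0% and 68.4% of those of Tind4 and Tgrp. Listericin stood at 1969 CPM in members against 144 in matched others of Tind1, 431 against 17.2 in Tind4 and 523 against 0 in Tgrp. CG12310 had 352 UMIs in the Tind1 members, 4 in those of Tind4 and 19 in those of Tgrp. No kept cell type known to lack these genes was at hand, so the part of free RNA in the shares of matched others with a UMI was not tested.

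**Figure D2:**
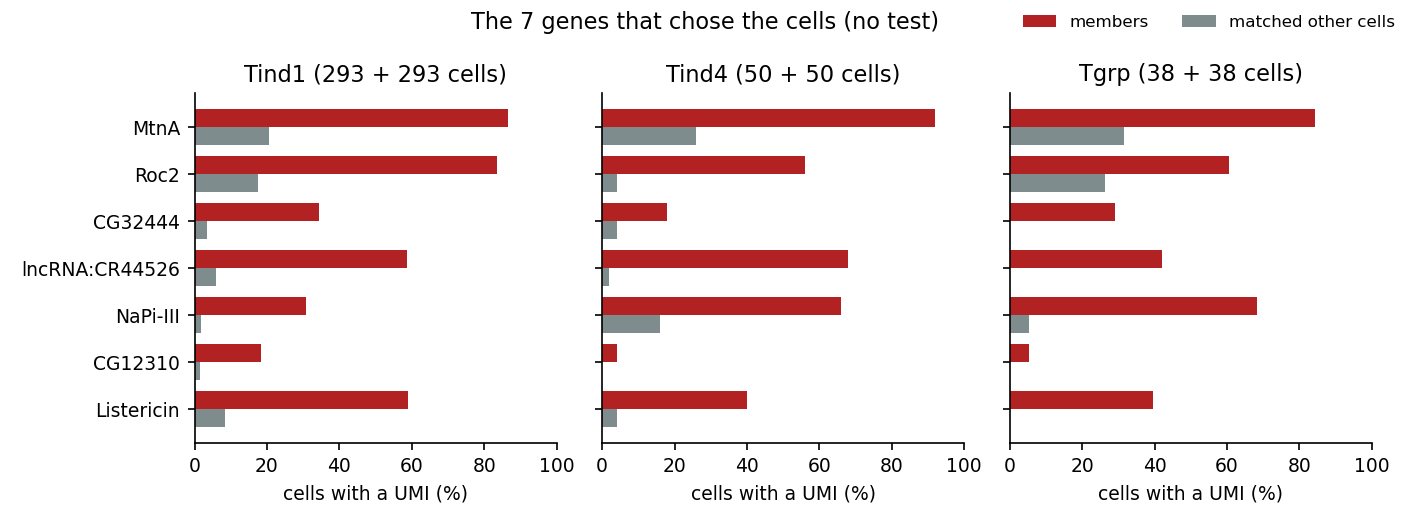
Percent of cells with at least 1 UMI of each defining gene in members and in UMI-matched other cells of Tind1, Tind4 and Tgrp, the libraries with at least 38 members. MtnA was detected in 86.7%, 92.0% and 84.2% of members, and CG12310 in 18.4%, 4.00% and 5.26%.

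Each defining gene was also read in cells chosen by at least 3 of the other 6. The matched cells came from all remaining kept cells, so members that met the rule only with the gene being read could be among them. All defining genes had been picked together from these data, so the values are a description and were not tested. In Tind1 MtnA then stood at 3618 CPM in 166 chosen cells against 1073 in as many matched cells, Roc2 at 686 against 114, Listericin at 1412 against 408 and CG12310 at 290.5 against 12.7. In Tind4 MtnA stood at 1621 CPM against 119 in 20 cells each and lncRNA:CR44526 at 162 against 12.9 in 32 cells each. In Tgrp MtnA stood at 279 CPM against 173 in 14 cells each, a narrower gap, while Listericin stood at 455 against 0 in 30 cells each and lncRNA:CR44526 at 119 against 0 in 26. Only 7 of those 30 chosen cells had a Listericin UMI, and 4 of the 26 a UMI of lncRNA:CR44526. Tind2 and Tind6 had too few cells to read this way, at most 6 chosen cells for any gene. In Tind1 cells just outside the threshold had about the depth of those just inside. There the 228 cells with exactly 2 genes had a median of 1919 UMIs and 8.74 defining UMIs per cell, and the 155 cells with exactly 3 had 1971 UMIs and 18.9.

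All other genes were compared between the members and their matched others, summed per library, without the 7 defining genes. The test was edgeR's quasi-likelihood test with the library as a block, over Tind1, Tind2, Tind4 and Tind6, with Benjamini-Hochberg adjustment over the 1383 genes that passed the filter on low counts. A gene is called below when its adjusted p was under 0.05. In all, 141 genes were higher in members, 10.2% of those tested, and 113 were lower, 8.17%. Counts of called genes in the lists below stand beside these shares. The 7 genes of the rule had led a cluster of these same cells in an earlier analysis of these data, so the comparison describes the members and is not independent evidence for them. The fit took the spread of every gene from a trend common to all genes, which gives small p-values from 4 tumors, whereas an exact sign-flip test of a single gene over 4 tumors cannot go below 0.125. DESeq2 called 83 genes higher and 54 lower, and without the library block edgeR called 9 and 6. Those 9 were Ldh, Gapdh2, Ald1, Pgi, Fer1HCH, Fer2LCH, bnl, MFS3 and Tpc1, and the 6 were CG34232, HmgD, Df31, Egfr, Fas2 and ATPsynC. Of the called genes that the rule for named genes chose, 23 did not pass by DESeq2: Pglym78, Taldo, Pgm1, scyl, mr, GstD9, Hsp26, Hsp27, Cnx99A, Sting, Ras85D, Nop60B, Nop56, RpS2, RpS24, COX7C, upd2, Gdh, path, esg, Myo31DF, Tm1 and stg. Without Tind1, 219 genes could be tested, of which 9 were higher and 2 lower, and without Tind4 228 could be tested, of which 25 were higher and 10 lower. In Tgrp, which the fit did not use, 134 of the 141 genes were also higher in members and 103 of the 113 were also lower, while the 1129 genes without a call split into 540 higher and 589 lower.

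Enzymes of glycolysis, which splits glucose to pyruvate, had a higher summed level in members in every library that held any. Of 11 tested genes of the glycolysis list, 9 rose and none fell, with a median log2 fold change of 1.20 beside -0.02 over all genes tested. Glycolysis genes summed to 17121 CPM in members against 8249.95 in matched others of Tind1, 12674.5 against 5397 in Tind2, 10409 against 4769.9 in Tind4, 14119.9 against 5011 in Tind6 and 12522 against 5417 in Tgrp. The lowest member sum exceeded the highest sum of matched others. Without Tind1, 8 of the genes could be tested and 4 rose, namely Eno, Gapdh2, Ald1 and Pgi. Against all other kept cells 5 of 11 passed, and without the library block 3 did.

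Pgi, which turns glucose 6-phosphate into fructose 6-phosphate, had the largest rise of the pathway. It stood at 1690.1 CPM against 458 in Tind1, 842 against 249.9 in Tind2, 523 against 185 in Tind4, 1542 against 78.3 in Tind6 and 1074 against 232 in Tgrp. Its log2 fold change was 2.00 ± 0.28 (SE) with an adjusted p of 1.25e-10 by edgeR. Ald1, the aldolase that cleaves fructose 1,6-bisphosphate, stood at 4896 CPM against 2087 in Tind1, 3614 against 1099 in Tind2, 2082 against 750.4 in Tind4, 3652 against 861 in Tind6 and 2796 against 1252 in Tgrp (1.67 ± 0.22, adjusted p = 4.31e-12, edgeR). Members of every library were above every matched sum except that the Tind1 others, at 2087, lay just over the Tind4 members.

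Gapdh1 and Gapdh2 encode near-identical forms of glyceraldehyde 3-phosphate dehydrogenase, so the split of reads between them is uncertain. Gapdh2 rose by 1.57 ± 0.24 on the log2 scale (adjusted p = 7.39e-09, edgeR) and Gapdh1 by 0.93 ± 0.27 (0.00617). The regulated step, phosphofructokinase (Pfk), rose by 1.35 ± 0.27 and triose phosphate isomerase (Tpi) by 1.28 ± 0.27. Enolase (Eno) rose by 1.20 ± 0.23, Pglym78, a phosphoglycerate mutase, by 0.98 ± 0.28, and pyruvate kinase (PyK) by 0.87 ± 0.26. Hexokinase (Hex-A), at the entry of the pathway, had a log2 fold change of 0.53 ± 0.26 (adjusted p = 0.139) and phosphoglycerate kinase (Pgk) of 0.21 ± 0.29 (0.693), so neither passed the test. Pgk was at 344 CPM against 311 in Tind1 and at 164 against 168 in Tind4.

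Ldh, which converts pyruvate to lactate and so regenerates NAD+ without oxygen, rose with them. It stood at 8388 CPM in members against 2673 in matched others of Tind1, 5199 against 2449 in Tind2, 3900.0 against 2527 in Tind4, 4869 against 2114 in Tind6 and 4776 against 1549 in Tgrp. All member values lay above all values of matched others, and Tind4 had the narrowest gap. The log2 fold change was 1.30 ± 0.20 (adjusted p = 9.68e-09, edgeR), and without Tind1 it was 1.11 (0.0139). Pdhb and Gpo1, the other genes of the fermentation and shuttle list that could be tested, had values of -0.43 ± 0.37 and 0.46 ± 0.38 and passed in neither direction. Taldo (transaldolase) rose by 1.15 ± 0.28, the only call among 3 tested genes of the pentose phosphate list, and Pgm1 (phosphoglucomutase, towards glycogen) by 1.08 ± 0.32, the only call among 5 of the sugar storage and uptake list. Against all other kept cells their adjusted p was 0.169 and 0.0807 by edgeR. Of 10 tested genes of the citric acid cycle none was called, with a median log2 fold change of 0.13.

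**Figure D3:**
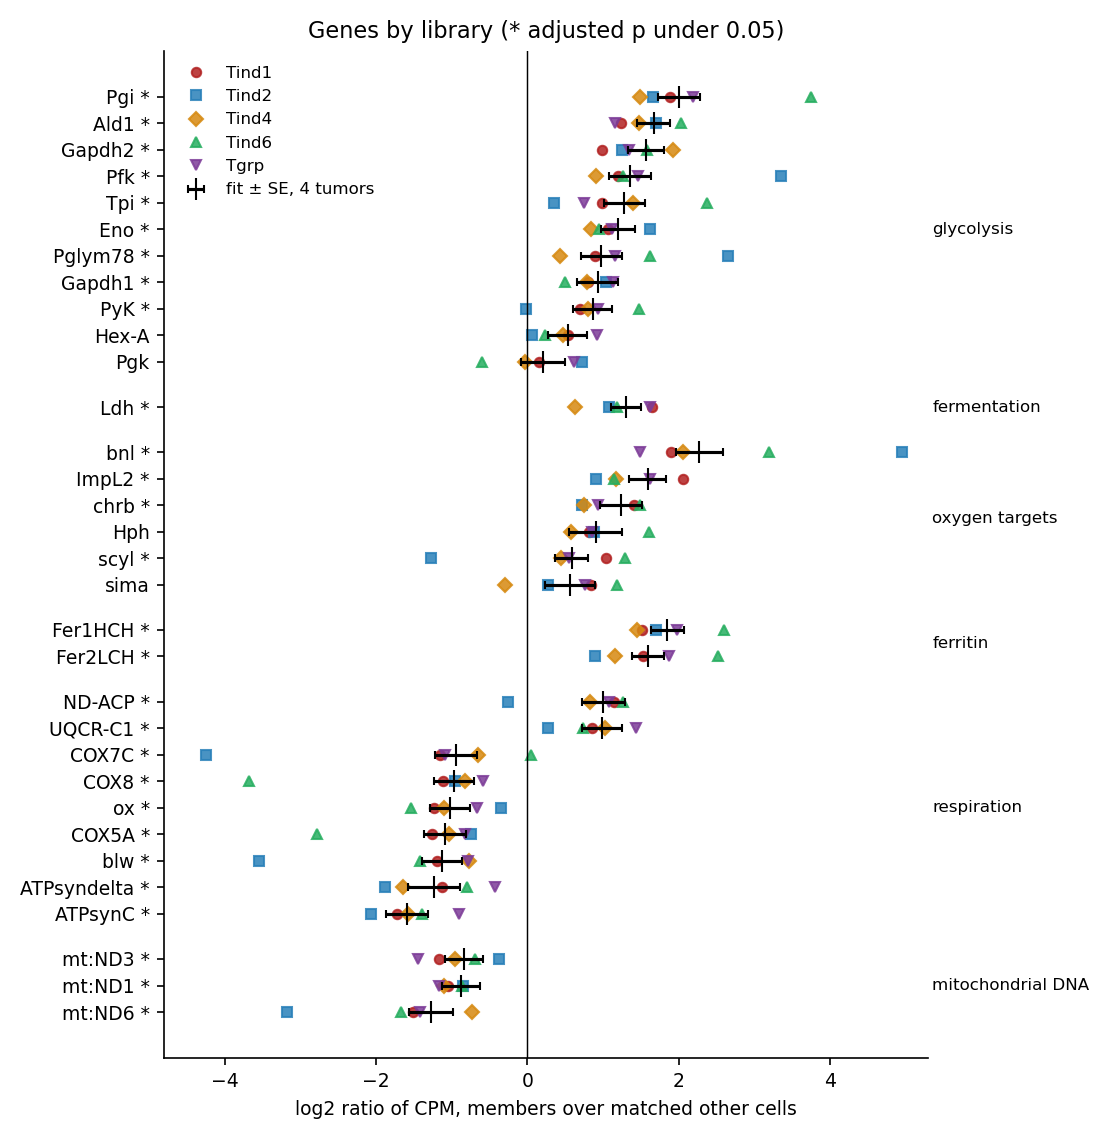
Log2 ratio of CPM in members over UMI-matched other cells for genes of 6 lists, by library (symbols), with the fit over 4 tumors and its SE (black). Each ratio was taken after a total of 1 UMI was added, split by the UMIs of either side, so that zeros can be drawn; 9 of 11 glycolytic genes and Ldh passed the test upwards, and genes of respiration lie mostly left of 0.

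Known targets of the low-oxygen response were higher as well. Of 7 tested genes of that list, Ldh included, 5 rose and none fell, with a median log2 fold change of 1.24. Against all other kept cells 3 of 7 passed, and without the library block 2 did. Branchless, the FGF ligand that attracts tracheal branches, stood at 433 CPM against 116 in Tind1, 276 against 64.7 in Tind4 and 349 against 123 in Tgrp. In Tind2 it had 15 UMIs in the 6 members and 0 in the matched others, and in Tind6 4 and 0. A bnl transcript was detected in 193 of 293 members of Tind1 against 48 of 293 matched cells. Its log2 fold change of 2.27 ± 0.31 (adjusted p = 9.62e-11, edgeR) depends on how the zeros are treated. It could not be tested without Tind1 for lack of counts.

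ImpL2, a secreted protein that binds insulin-like peptides, stood at 2853 CPM against 686 in Tind1, 2178 against 1149 in Tind2, 911 against 405 in Tind4, 1785 against 783 in Tind6 and 1864 against 607 in Tgrp. It was higher in members of all 5 libraries (1.59 ± 0.24, adjusted p = 9.05e-09, edgeR), and without Tind1 its adjusted p was 0.0658. Charybde rose by 1.24 ± 0.28 and was higher in members of all 5 libraries. Scylla passed with 0.58 ± 0.22 (adjusted p = 0.041), but it was lower in the members of Tind2, at 1287 CPM against 3148, and DESeq2 gave it an adjusted p of 0.461. The oxygen sensor Hph had a value of 0.90 ± 0.35 (0.0565) and sima of 0.57 ± 0.33 (0.237), which did not pass. The FGF receptor breathless (btl) had 3 UMIs in the members of Tind1 and 5 in their matched others.

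Both ferritin chains rose together. Fer1HCH stood at 4117 CPM in members against 1442 in matched others of Tind1, 3466 against 1049 in Tind2, 2872 against 1052 in Tind4, 5437 against 861 in Tind6 and 4303 against 1091 in Tgrp. For Fer2LCH the values were 3389 against 1178, 3169 against 1699, 2665 against 1190.3, 5599 against 939.6 and 4155 against 1129.8 in the same order. Neither gene's member values overlapped those of matched others. The log2 fold changes were 1.85 ± 0.21 (adjusted p = 1.24e-14) and 1.60 ± 0.21 (1.94e-11) by edgeR, 2.00 (0.0068) and 1.61 (0.0274) without Tind1, and both also passed without the library block (0.00892 and 0.0229). The genes lie head to head on 3R, from 30385573 to 30388178 and from 30387804 to 30390584, and overlap by 375 bases on opposite strands. Alas, the first enzyme of heme synthesis, rose by 2.06 ± 0.34 (1.09e-07), at 315 CPM against 89.7 in Tind1 and 302 against 64.7 in Tind4.

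The other metallothionein genes did not pass the filter on low counts, and their UMIs are given for that reason, chosen after they were seen. Some other settings tested more genes of the metal list, which also holds the ferritin genes. There edgeR called 5 of 16 higher without that filter, 5 of 7 without Tind2, 3 of 6 without Tind6 and 3 of 12 against all other kept cells. At 300 UMIs it called 0 of 4, and no setting named here called a gene of the list lower. These calls are not given by gene. MtnD had 47 UMIs in members against 5 in matched others of Tind1, 116 against 7 in Tind4, 7 against 0 in Tind6 and 20 against 3 in Tgrp. MtnE had 104 against 59 in Tind1, 55 against 0 in Tind4, 11 against 0 in Tind6 and 9 against 14 in Tgrp. Tind4 therefore had the most MtnD although Tind1 had the most members, and MtnE did not go the same way in every library. MtnB had 30 UMIs in 1 Tind4 member and 4 in the Tind1 others, and MtnF none. MTF-1, the factor that drives metallothionein genes, had 83 UMIs against 38 in Tind1, 15 against 4 in Tind4 and 9 against 13 in Tgrp.

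**Figure D4:**
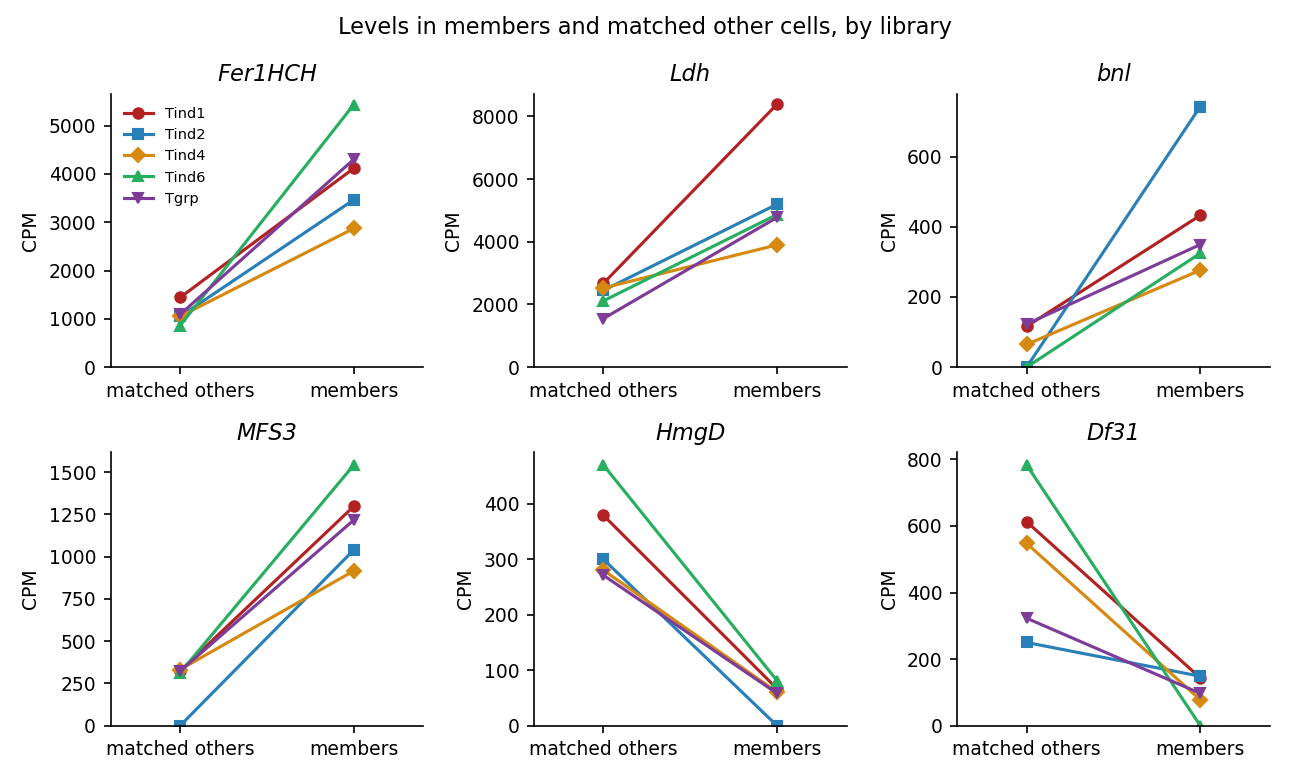
Level of 6 genes in CPM in members and in UMI-matched other cells, with a line for each library that had members. Fer1HCH, Ldh, bnl and MFS3 were higher and HmgD and Df31 lower in the members of all 5 libraries.

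Among the 10 largest rises with 1 direction in the 4 tumors and at least 50 CPM in the higher class were also MFS3, Tpc1, mr, CG14302 and GstD2, which share no list. MFS3, a transporter placed here with the phosphate transporters, stood at 1298 CPM against 324 in Tind1, 1039.7 against 0 in Tind2, 916 against 332 in Tind4, 1542 against 313 in Tind6 and 1217 against 323 in Tgrp. No member value overlapped the values of matched others (log2 fold change 2.12 ± 0.27, adjusted p = 4.31e-12, edgeR). Tpc1, the mitochondrial carrier of thiamine pyrophosphate, rose by 2.00 ± 0.43, mr, a subunit of the anaphase-promoting complex, by 1.95 ± 0.43 and CG14302 by 1.85 ± 0.29. The direction of Tpc1 and mr in Tind2 and Tind6 rests on very few UMIs. In members against matched others Tpc1 had 2 against 1 in Tind2 and 1 against 0 in Tind6, and mr had 1 against 0 in each. In Tind2 CG14302 stood at 1634 CPM against 1549, a far smaller gap than the 764 against 142 of Tind1.

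Of 15 tested genes of the glutathione and redox list, 4 rose and none fell, beside 10.2% of all tested genes called higher. The list had a median log2 fold change of 0.37. GstD2, a glutathione transferase of the delta cluster, stood at 5483 CPM against 1954 in Tind1, 1412 against 604 in Tind4, 1379.5 against 78.3 in Tind6 and 2025 against 1666 in Tgrp, with 1 UMI in the members of Tind2. It was called at 1.65 ± 0.26 (adjusted p = 4.48e-08, edgeR), but the gap in Tgrp was small. Catalase (Cat) rose by 1.53 ± 0.33 and GstD9 by 0.97 ± 0.32, and GstD5 was the fourth. The delta-class genes are close paralogs, so reads may be shared among them. Without Tind1 4 genes of the list could be tested and none was called, and without the library block none of 15 was.

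Small heat shock proteins, which hold unfolded proteins, made up most of the calls of the heat shock list. In it 4 of 9 tested genes rose, beside 10.2% of all tested genes, with a median log2 fold change of 0.57. Hsp23 stood at 3220.4 CPM against 2294 in Tind1, 2426 against 1049 in Tind2, 1952 against 311 in Tind4, 1785 against 392 in Tind6 and 1812 against 665 in Tgrp (1.63 ± 0.24, adjusted p = 1.3e-09, edgeR). Hsp26 stood at 4545 against 4203 in Tind1 and 1823 against 737 in Tind4, and Hsp27 at 1549 against 1760.5 and 1149 against 259. The rise of Hsp27 was thus not seen in Tind1. When members were compared with all other kept cells in place of matched ones, the log2 fold changes fell to 0.19 for Hsp23, -0.13 for Hsp27 and -0.39 for Hsp26, none of which passed. By DESeq2 2 of the 9 genes passed, and without the library block none did.

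By the same conditions the 10 largest falls were CG34232, HmgD, Df31, scramb2, Egfr, Fas2, CNBP, ATPsynC, hoip and Sting. HmgD, a chromatin protein with an HMG box, stood at 66.6 CPM in members against 379 in matched others of Tind1, 60.5 against 280.3 in Tind4, 81.1 against 469.8 in Tind6 and 58.2 against 271 in Tgrp, with 0 UMIs against 299.9 CPM in Tind2. No member value reached any value of matched others (log2 fold change -2.36 ± 0.35, adjusted p = 1.3e-09, edgeR). HmgD overlaps HmgZ on the opposite strand. Df31, a factor that keeps chromatin open, stood at 143 CPM against 613 in Tind1, 149 against 249.9 in Tind2, 77.7 against 548 in Tind4, 0 against 783 in Tind6 and 97.1 against 323 in Tgrp (-2.24 ± 0.29, 4.31e-12). Every library had the lower level in members.

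The receptor Egfr, which signals through Ras, stood at 31.8 CPM against 160.0 in Tind1, 99.0 against 249.9 in Tind2, 38.9 against 138 in Tind4, 0 against 157 in Tind6 and 25.9 against 71.0 in Tgrp. It was lower in the members of all 5 libraries (-2.02 ± 0.40, adjusted p = 1.76e-05, edgeR). Ras85D fell by 1.02 on the log2 scale (SE 0.23, 0.000176) in the fit, but in Tgrp it stood at 2135 CPM in members against 1763. Transcripts of the endogenous gene and of UAS-RasV12 cannot be told apart in these counts. The adhesion protein Fas2 fell by 1.71 (SE 0.28), the nucleic acid-binding protein CNBP by 1.60 (0.28), the scramblase gene scramb2 by 2.02 (0.44), CG34232 by 2.51 (0.44) and Sting, a sensor of cyclic dinucleotides, by 1.57 (0.43). None of these 5 could be called without Tind1, where CNBP had an adjusted p of 0.0658 and the others were too sparse.

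Genes of ribosome production were lower in part. The growth and Myc list had a median log2 fold change of -0.87. Of its 8 tested genes 4 fell and none rose, beside 8.17% of all tested genes called lower. Those 4 were Nop60B, nop5, Nop56 and NHP2, all of the small nucleolar particles that modify ribosomal RNA. In addition hoip, a protein of the same kind of particle, fell by 1.59 on the log2 scale (SE 0.37). Nop60B stood at 90.2 CPM against 262 in Tind1, 30.2 against 246 in Tind4 and 51.8 against 90.4 in Tgrp, and in Tind6 at 81.1 against 0. DESeq2 called 1 of the 4, and edgeR without the library block none. Without Tind1 or without Tind4 only 1 gene of the list could be tested, with no call. Of 82 tested cytosolic ribosomal protein genes 3 fell, RpL41, RpS24 and RpS2, by 0.57 to 0.61. That is a smaller share than the 8.17% of all tested genes called lower. Of the genes without a call, 65 had a negative and 14 a positive log2 fold change. The list summed lower in members of every library that held any, at 264152 CPM against 299994 in Tind1 and 237796 against 278011 in Tind2. In Tind4 it summed to 187555 against 241578, in Tind6 to 201737 against 266463 and in Tgrp to 166400 against 186917. The list median was -0.13, and scaling by library totals alone raised the count of 3 to 15.

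Nuclear genes of the respiratory chain and ATP synthase were lower in members, mainly in complexes IV and V. Over all tested genes 8.17% were called lower and 10.2% higher. Of 55 tested genes of this list 13 fell and 2 rose, with a median log2 fold change of -0.43. Among them 7 of 13 genes of ATP synthase (median -0.74) and 5 of 8 of cytochrome c oxidase (median -0.77) fell, whereas complex I had 1 call upwards and none downwards among 22. DESeq2 called 3 of the ATP synthase and 2 of the cytochrome c oxidase genes lower, edgeR without the library block 1 and 0, and edgeR against all other kept cells 2 and 0. The whole list summed to 14171 CPM in members against 22433 in matched others of Tind1, 9258 against 18091 in Tind2, 17371 against 18596.5 in Tind4, 8845 against 16992 in Tind6 and 11655 against 14610.2 in Tgrp. The gap was widest in Tind1, Tind2 and Tind6 and narrow in Tind4. Without Tind1 7 of the genes could be tested, none was called and their median was -0.42. Without Tind4 3 of 10 fell.

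ATPsynC, the membrane ring subunit of ATP synthase, stood at 257 CPM against 848 in Tind1, 149 against 699.6 in Tind2, 164 against 496 in Tind4, 243 against 705 in Tind6 and 343 against 646 in Tgrp (-1.59 ± 0.27, adjusted p = 5.11e-07, edgeR). Its member values all lay below those of matched others. ATP synthase alpha (blw) and delta (ATPsyndelta) fell by 1.13 and 1.23 on the log2 scale (SE 0.27 and 0.34), and in cytochrome c oxidase COX5A, COX8 and COX7C fell by 1.09, 0.97 and 0.95. In complex III ox fell by 1.02 while UQCR-C1 rose by 0.99 ± 0.27, and in complex I the acyl carrier ND-ACP rose by 1.00 ± 0.28. UQCR-C1 was higher in members of all 5 libraries, at 631 CPM against 351 in Tind1 and 440.0 against 161 in Tgrp.

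Among 11 tested genes of the mitochondrial genome 5 fell and none rose, beside 8.17% of all tested genes called lower. Those 5 were all subunits of complex I: mt:ND1, mt:ND3, mt:ND4, mt:ND5 and mt:ND6. mt:ND1 stood at 525 CPM against 1086 in Tind1, 545 against 999.5 in Tind2, 402 against 863 in Tind4, 1055 against 1958 in Tind6 and 731 against 1653 in Tgrp (-0.88 ± 0.25, adjusted p = 0.00563, edgeR). It was lower in all 5 libraries. Without Tind1 none of 10 tested genes of this list was called, and without Tind4 1 was called, upwards. Without the library block none was called, and against all other kept cells 1 of 13 was, downwards. The share of UMIs from the mitochondrial genome, a measure of RNA quality that the 15% limit restricts, was 7.37% in members against 7.38% in matched others of Tind1, 7.96% against 9.16% in Tind2, 4.06% against 6.95% in Tind4, 9.61% against 10.6% in Tind6 and 6.11% against 8.04% in Tgrp. The mean difference over the 4 tumors was -1.26 ± 1.20 percentage points (SD, n = 4), lower in all 4 although nearly equal in Tind1, with an exact two-sided sign-flip p of 0.125, the smallest that 4 tumors allow. Genes detected at 300 UMIs differed by -10.8 ± 11.6 on average (SD, n = 4, exact p = 0.25), with 169.9 in members and 180.7 in others. The part of RNA quality in the gene differences was not tested.

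The summed levels also changed with the number of defining genes that a cell had, a relation given as a description, since depth was not matched. In Tind1 the glycolysis sum was 6738 CPM in cells with none of the 7 genes, 9887 with 1, 14022 with 2, 16600.4 with 3 and 17679 with 4 or more. The median depth of these cells was 1480.0, 1938, 1919, 1971 and 3585 UMIs. Nuclear respiratory genes went from 21261 to 19880.1, 17039.9, 14594 and 13730.4 CPM over the same cells. In Tgrp the glycolysis sum went from 4467 through 6345, 8179 and 12403 to 12810.3, and in Tind4 from 3826 through 5388, 7834 and 10703 to 9889. Tind4 differed in its respiratory sum, which was 14603 CPM in cells with none and 17848 in cells with exactly 3. Tind3, with no member, had 7784 CPM of glycolysis genes in the cells with none.

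**Figure D5:**
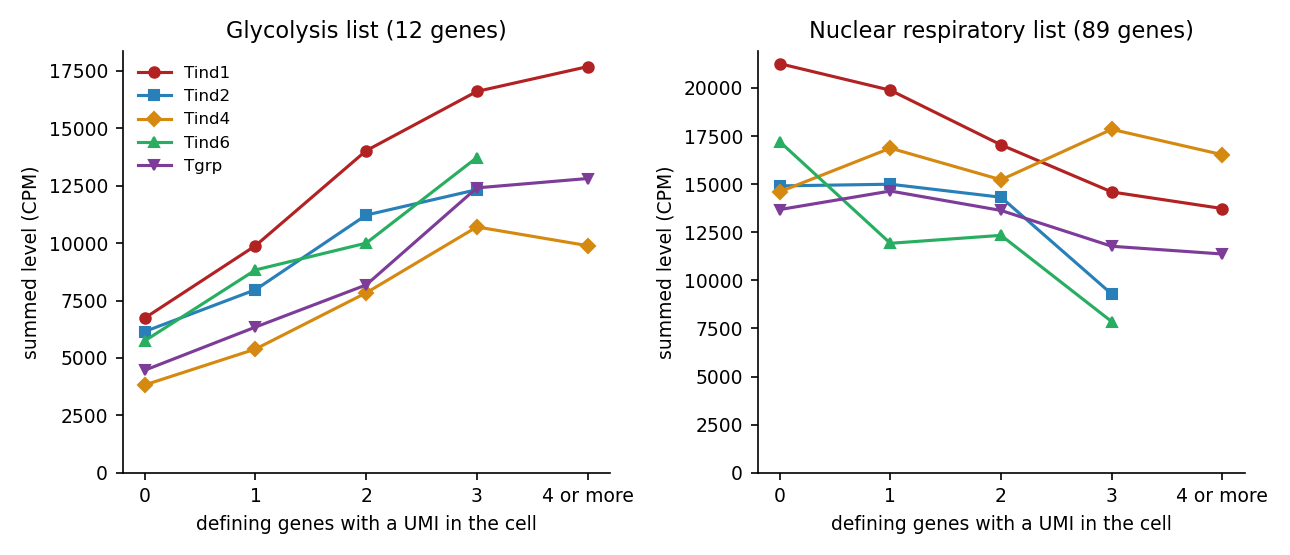
Summed level, in CPM of the UMIs without the defining genes, of the glycolysis list and of nuclear respiratory genes in cells grouped by the number of defining genes with a UMI, for groups of at least 4 cells. Glycolysis sums lie higher with 3 genes than with none in all 5 libraries, and respiratory sums lie lower except in Tind4.

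Of 25 immune genes only 2 could be tested and neither was called. The antibacterial peptide genes DptA, DptB, Mtk, Dro and AttA had no UMI in members or matched others, and others had few, such as Drs with 5 against 0 in Tind1, 2 in matched others alone in Tind2 and 4 against 0 in Tind4, AttD with 14 against 14 in Tind4 and Def with 7 against 6 in Tgrp. Of 3 tested JAK/STAT genes the cytokine upd2 fell by 1.30 on the log2 scale (SE 0.46, adjusted p = 0.0307, edgeR) and none rose. Its level was low, at 14.3 CPM against 27.5 in Tind1 and 21.6 against 125 in Tind4. None of 4 tested cullin ligase genes was called, with a median log2 fold change of 0.00. Of 8 tested genes of the ATF4 and amino acid list Gdh and the transporter path fell, by 0.92 (SE 0.34) and 0.81 (SE 0.27). With Tgrp added their adjusted p was 0.0835 and 0.0851 by edgeR, and path was higher in the members of Tind2, at 693 CPM against 299.9. Of 9 tested chaperones of the endoplasmic reticulum only calnexin (Cnx99A) rose, by 1.16 ± 0.34. That count is near the 10.2% of all tested genes called higher.

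Markers of other cells of the midgut and fly were compared in the same sums. Progenitor markers were captured in members and summed to 962 CPM against 1824 in matched others of Tind1, 1451 against 2441 in Tind4 and 974 against 3132 in Tind6. In Tind2 they summed to 2525 against 1849 and in Tgrp to 1204 against 1575. Among them heca held 1110 of 1524 UMIs in members and 1644 of 2676 in others. Delta had 47 UMIs in 38 members against 214 in 103 others, and only Su(H) had more UMIs in members, 17 against 15. Of 12 such markers wor was at 0 in members, and of 3 tested esg fell by 1.10 on the log2 scale (SE 0.36, adjusted p = 0.0159, edgeR), with a UMI in 60 of 392 members against 133 of 392 matched others. In Tind2 esg had 8 UMIs in members and 0 in others, and its adjusted p was 0.803 by DESeq2 and 0.561 without the library block. Enterocyte markers summed to 49.5 to 3209 CPM in members and 548 to 2599 CPM in others, with 7 of 14 at 0 in members and in matched others, among them alphaTry, betaTry, Amy-p and Jon65Aiv. The junction gene Ssk held most of these UMIs and went both ways, with 573 UMIs against 154 in Tind4 and 598 against 540 in Tind1, but 67 against 201 in Tgrp and 0 against 36 in Tind2. Of 4 tested enterocyte genes the myosin Myo31DF fell by 0.96 on the log2 scale (SE 0.35, adjusted p = 0.0406, edgeR), and with Tgrp added it did not pass (0.0507). The part of enterocyte transcripts in the other values was not tested.

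Markers of enteroendocrine cells were at 0 in members for 9 of 15 genes. Among these, pros, Tk and AstC had 2, 0 and 0 UMIs in others, whereas Orcokinin had 39 UMIs in members against 3. The list summed to at most 243 CPM in members and 235 in others of the 4 tumors and to 181 against 504 in Tgrp. Hemocyte markers summed to 54.3 to 162 CPM in members and 56.1 to 99.95 in others of the 4 tumors. Among them crq held 95 of 106 UMIs in members and 107 of 108 in others. At 0 in members were srp, eater and Hml, which had 1, 0 and 0 UMIs in others. Ppn had 5 UMIs against 0, Pxn 3 against 0, and He, NimC1 and Sr-CI 1 against 0 each. Tracheal markers had 4 UMIs in all members and 7 in all others, with 6 of 8 at 0, and fat body markers 11 and 8, with 6 of 9 at 0. Malpighian tubule markers had 78 UMIs in members against 28, of which Alp4 held 63 against 8, and 6 of 9 were at 0. Among visceral muscle markers Tm1 held 414 of 443 UMIs in members and 703 of 715 in others and, as the only tested one, fell by 0.79 (SE 0.26). Mf, up and Act57B were at 0 in both, and the rest were few and not lower in members, such as bt with 13 against 6 UMIs and wupA with 9 against 3. Division markers had 921 UMIs in members against 1445 in others. They summed to 690 CPM in members against 1154 in Tind1, 297 against 199.9 in Tind2 and 669 against 746 in Tind4. In Tind6 the sums were 811 against 1801 and in Tgrp 498 against 730. Untested markers included Cdk1, with 7 against 32 UMIs, and aurB, with 9 against 39. Only BubR1 of the list had more UMIs in members, 25 against 23. The 3 tested genes had a median log2 fold change of -0.09. Of them only stg, the phosphatase that starts mitosis, was called, with a fall of 1.42 on the log2 scale (SE 0.38, adjusted p = 0.00242, edgeR). Its adjusted p was 0.0668 by DESeq2 and 0.296 without the library block.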

How the data were processed

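Cells of 6 tumors were sequenced singly and of 6 more in a pool with the 10x Chromium 3′ chemistry. The authors used Cell Ranger 6.0.1 and genome r6.42 for alignment and cell calling and deposited raw UMI counts per gene and cell. Of 17619 features, 17556 matched a gene symbol. Positions come from Ensembl's annotation of the release 6 assembly. Whether counting used the strand is not given in the sources used here. Kept cells had 100 to 2000 genes and at most 15% mitochondrial UMIs, and left out were 99 kept Tind5 cells whose barcodes also occur in Tind4. Doublets were kept, and Scrublet (scanpy 1.11.5) was used for an alternative. Members were matched 1 to 1 by UMIs within 0.05 on the log10 scale. CPM leaves the 7 defining genes out, except for those genes themselves.

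For members and for matched others, UMIs were summed within each library, and edgeR 4.0.16 was run on the sums in R 4.3.3 with TMM scaling, the filterByExpr filter and the library as a block. DESeq2 1.42.0 was an alternative. The block comes from the design, since both sums of a pair come from the same library. Simulated data had the means and the fitted spread of these sums and were run on 1383 genes. There edgeR recovered 66% of 100 genes changed by a log2 of 1 and 100% of those changed by 2, and 9 of 175 calls were false. The share of false calls in the real sums, where each gene may have its own spread between tumors, was not tested. The members and lists were chosen with earlier results of these data known. Named genes are the tested genes of the glycolysis, fermentation, metal and hypoxia lists, the 10 largest rises and 10 largest falls with 1 direction in all tumors that had members and at least 50 CPM in the higher class, and at most 3 called genes each way from other lists. GstD5, Hsc70-4, NHP2, mt:ND4, mt:ND5 and the genes too sparse to pass the filter were named after their values were seen. P-values of the edgeR fit rest on 4 tumors and on a spread taken from a trend common to all genes, not on each gene's own spread between tumors. No sequence is printed. Python 3.11.15, numpy 2.4.6, pandas 2.3.3, scipy 1.17.1 and matplotlib 3.10.9 were used.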

Additional observations from a re-analysis of the deposited data

Results flagged for a closer look

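A tumor stood far from the other 3 in 5 of 73 measures, and chance alone gives about 1 in 20. The log2 ratio of Pfk was 3.36 in Tind2 against 0.91 to 1.26 in the others, and that of hoip -2.33 against -1.65 to -1.54. GstD9 had -1.59 in Tind2, where its only UMI was in the matched others, against 0.89 to 1.26 elsewhere. GstD2 had 3.59 in Tind6 against 1.22 to 1.58, and COX8 had -3.68 in Tind6, with no UMI in members, against -1.12 to -0.82. Tind2 had 6 and Tind6 5 members, so these ratios rest on few UMIs.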

How the results depend on the processing

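The 141 genes higher and 113 lower in members depended on the tumors and the cells compared. DESeq2 called 83 and 54, of which 79 and 52 were among those of edgeR. Without the replicate block, that is with the pairing of sums within a library ignored, edgeR called 9 and 6, all of them among the 141 and 113. Requiring at least 4 of 7 genes left 29 and 12 calls, a mitochondrial limit of 10% left 91 and 103, and no upper limit on genes gave 250 and 163. After thinning to 300 UMIs 414 genes could be tested and edgeR called 0 and 0, with 5 higher and 18 lower at an unadjusted p under 0.05. Leaving out 1 tumor at a time gave 9 to 187 genes higher and 2 to 146 lower, the lowest without Tind1. Tind3 and Tind5 have no members, so leaving them out gives no new fit. Of the settings chosen after seeing the data, at least 2 of 7 genes gave 63 and 33, and Tind1, Tind4 and the group of tumors alone gave 274 and 183. Against all other kept cells at any depth edgeR called 111 and 112, of which 40 and 46 were among those at matched depth. Scaling by library totals alone moved the split to 94 higher and 147 lower and the median log2 fold change of all genes to -0.15, and testing without the low-count filter gave 208 and 76. Other settings kept both counts within 1.5 times.

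Directions of named genes that had passed the test turned in 14 cases. At 300 UMIs the fit held 31 members of Tind1, 1 of Tind4, 1 of Tind6 and 0 of Tind2. Its median log2 fold change over all tested genes was -0.72, so its values rest on single cells in Tind4 and Tind6. There the log2 fold changes were -0.29 for Gapdh1, -0.90 for Tpi, -0.22 for PyK, -0.65 for Eno, -0.20 for Ldh, -1.42 for scyl, -1.76 for Hsp23, -1.87 for Hsp27, -1.42 for Hsp26 and 0.038 for COX7C. Against all other kept cells they were -0.13 for Hsp27 and -0.39 for Hsp26, and with at least 4 of 7 genes -0.39 and -0.54. The cause was not tested. In 1038 cases a named gene stayed on its side of the threshold. These include Hex-A at 300 UMIs, where its log2 fold change turned to -0.0125 without passing. In 259 cases a named gene no longer passed, and in 7 it newly passed. Settings in which a gene could not be tested are not counted. The mean share of members, 3.84%, ranged from 0.333% at 300 UMIs to 9.21% with at least 2 of 7 genes and was 1.76% without Tind1. The mitochondrial difference was -0.363 percentage points against all other kept cells, lower in 2 tumors and higher in 2, and -2.90 with at least 4 of 7 genes. The difference in detected genes, -10.8, was -0.512 against all other kept cells. Libraries with 5 and 6 members set the limit of depth.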

Other observations

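Single markers within 2 lists of other cell types stood apart from their lists and are given as values, chosen after they were seen. Orcokinin, an enteroendocrine peptide gene, had 39 UMIs in 31 members against 3 UMIs in 3 matched others. Of these UMIs 26 against 2 came from Tind1, 9 against 1 from Tind4 and 3 against 0 from Tgrp. Alp4, an alkaline phosphatase gene listed with the Malpighian tubule markers, had 63 UMIs in 57 members against 8 in 7 matched others, with 49 against 7 in Tind1, 7 against 1 in Tind4, 4 against 0 in Tind6 and 3 against 0 in Tgrp. Both genes were too sparse to pass the low-count filter.

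CG16995 had a log2 fold change of 2.31 ± 0.30 (SE, adjusted p = 4.31e-12, edgeR), but it missed the condition of 1 direction in all tumors. It had 194 UMIs in members against 41 in matched others of Tind1, 399 against 87 in Tind4, 11 against 1 in Tind6 and 35 against 17 in Tgrp, and 0 against 1 in Tind2.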
